A study of Homo sapiens with 288 samples.

Results

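The genes described here encode the ephrins, their Eph receptors, the semaphorins and the plexins. They were taken by symbol, as the rows of the gene tables named EFNA, EFNB, EPHA, EPHB, SEMA or PLXN with a number or a class letter. The rule uses no measured value, but the families were picked with earlier results of these data known. This gave 43 of the 17492 listed genes, namely 4 EFNA, 3 EFNB, 6 EPHA, 4 EPHB, 18 SEMA and 8 PLXN genes. Other members of these families were not analysed here. The samples were single cells of the H1 human embryonic stem cell line after differentiation to EC or TB cells, which the labels abbreviate and the study describes as endothelial and trophoblast-like cells. EC cells were cultured in E8 medium with BMP4 (5 ng/ml) and Activin A (25 ng/ml) for 2 days and, over the next 3 days, with VEGF and WNT. TB cells were cultured in E7 medium, which is E8 without FGF2, with BMP4 (50 ng/ml) and SB431542. The stored amplified cDNA of 45 EC and 51 TB cells was equalized before library preparation and sequenced in the experiments EQ, EQ-Vary and EQ-75%, so all 96 cells were shared by the 3 experiments, which gave 288 libraries. EQ and EQ-75% were pooled at equal volumes, EQ-Vary was pooled at volumes set by a scaling factor, and EQ-75% was a lower-depth repeat of EQ. No separate cultures were named, so each cell type in each experiment counts as 1 sample. The differences between EC and TB therefore have no replicate check and no p-value, SDs describe the spread between cells, and intervals cover counting error only.

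Ephrins are ligands held in the cell membrane, the A class by a lipid anchor and the B class by a transmembrane segment, and they bind Eph receptor tyrosine kinases on neighbouring cells. Signals run into both the receptor-bearing and the ligand-bearing cell, and ephrin-B2 with its receptor EphB4 is the textbook pair that marks arterial and venous endothelium. Semaphorins are secreted (class 3) or held in the membrane (classes 4 to 7), and they act through plexins, for most class 3 members with a neuropilin as co-receptor. Both systems were first known for steering growing axons and also shape blood vessels and placental tissue.

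After the study's own limits on cells, a minimum total count and a maximum share of counts in the top 50 genes, 38 EC and 48 TB cells remained in EQ, with a median total count of 2025145 in EC and 1968545 in TB. Across experiments, 38 to 39 EC and 46 to 50 TB cells passed, and the median total was between 1499284 and 2025145. The labelled cell types were checked against their markers. The sum of the 15 endothelial markers per cell was 410 to 10668 counts per 1000000 (CPM) in EC and 5.14 to 159 CPM in TB, and 14 of the 15 were at least 4-fold higher in EC. Of the 13 trophoblast markers, 12 passed a filter of 1 CPM and 8 of these were at least 4-fold higher in TB, with a sum of 61.6 to 3974 CPM in EC and 1979 to 12160 CPM in TB. Among the markers that define TB, VTCN1, HAND1 and KRT7 were at least 4-fold higher in TB, whereas GATA3 averaged 120 CPM in EC against 236 CPM in TB and TFAP2A 70.7 against 229 CPM. Of the other trophoblast markers, CGA averaged 1.44 CPM in EC and 2.93 CPM in TB, and ELF5 1.68 and 3.43 CPM. CDX2 had a count in 1 of 48 TB cells. The amnion marker ISL1 averaged 12.4 CPM in EC and 103 CPM in TB. TB cells also held the mesenchymal matrix transcripts LUM (3041 CPM) and COL3A1 (735 CPM), and the summed mesenchymal markers were 651 to 9903 CPM in TB and 6.04 to 782 CPM in EC. Their part in the differences below was not tested. Cell EC 15 had the lowest endothelial sum and the highest trophoblast and pluripotent sums of the EC cells, cell EC 43 had the highest sum of defining TB markers, and cell TB 5 had the lowest sum of defining TB markers of its type.

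The defining markers also give the level at which a transcript appears in cells of the other type. In TB, PECAM1 stood at 15.0 CPM, which was 1.14% of its EC level, and CDH5 stood at 0.75 CPM, or 0.19% of its EC level. A count was found in 100% of the TB cells for PECAM1, in 64.6% for CDH5, in 47.9% for TEK, in 12.5% for TIE1 and in 0% for CLDN5. In EC, VTCN1 stood at 3.64 CPM, which was 0.319% of its TB level, with a count in 100% of the cells, and KRT7 had a count in 7.89%. A member seen in the other type at such levels is given below as a value and not read as expressed there.

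Of the 43 members, 34 had an average of the mean CPM of EC and TB of at least 1, and 11 of these 34 (32.4%) were at least 4-fold higher in EC, against 10.1% of the 12351 genes that passed the same filter. Another 7 members (20.6%) were at least 4-fold higher in TB, against 14.8% of all genes. The filter passes a low gene mainly through the type in which it is high, so these shares describe the list and give no support for its direction. The median log2 ratio of EC over TB was 0.88 over the 34 members and -0.06 over all genes that passed. The members higher in EC were SEMA3G, EPHB2, PLXND1, SEMA5B, EPHA7, SEMA3E, SEMA3F, PLXNA2, EFNA1, EPHA2 and SEMA4F, and those higher in TB were EPHA3, SEMA3C, SEMA5A, PLXNC1, SEMA4A, EPHA1 and PLXNB1. Without cells EC 15, EC 43 and TB 5, a choice made after the data were seen, the counts were 9 and 7. Nearest to the 4-fold line, SEMA4F was 4.05-fold higher and EPHA2 4.34-fold higher in EC. Toward TB, SEMA6D, at 3.47-fold, and EFNB3, at 3.25-fold, fell short of it. Toward EC, EFNB2, at 3.09-fold, and SEMA4C, at 3.05-fold, did so too.

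**Figure D1:**
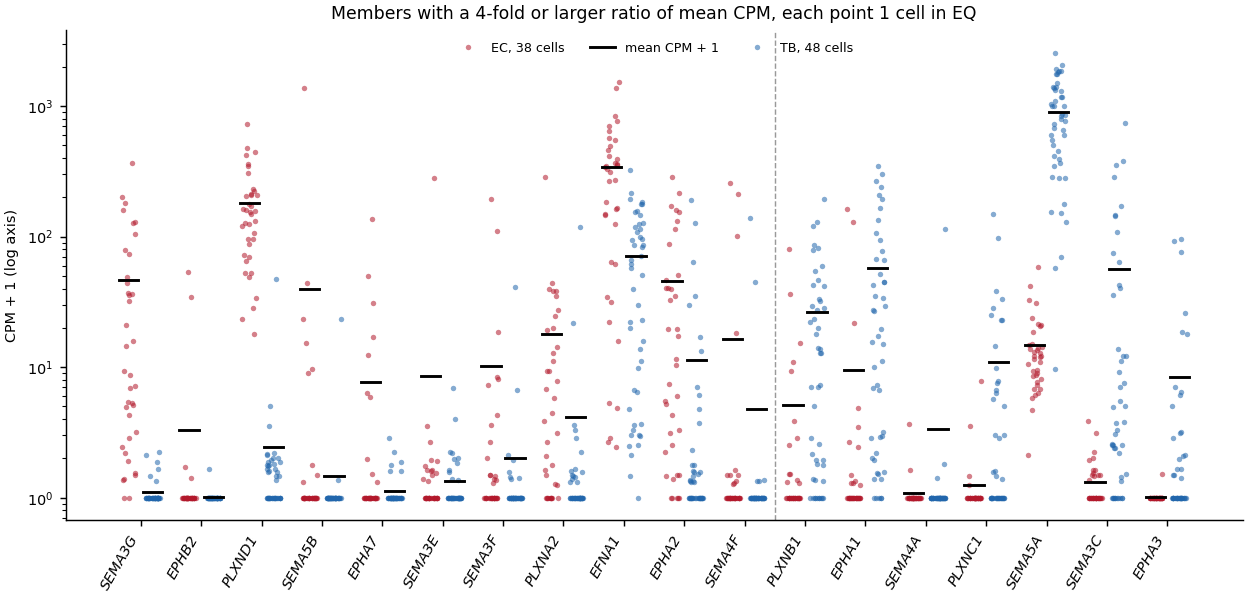
CPM + 1 on a log axis in each of the 38 EC (red) and 48 TB (blue) cells of EQ for the 18 members with a ratio of at least 4, with black bars at the mean; the dashed line parts the 11 members higher in EC from the 7 higher in TB. PLXND1 and SEMA5A were high in nearly every cell of their type, whereas for SEMA3E and SEMA4A the ratio rested on 1 cell each.

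For 2 members higher in EC and 2 higher in TB, each with a count in most cells of its type, the 250 bases before the annotated start are shown, 5′ to 3′ on the strand of the gene, as the promoter sequence next to that start. They are taken from RefSeq on GRCh38.p14 and all 4 genes lie on the minus strand. PLXND1 (chr3:129606677-129606926) and SEMA3G (chr3:52445104-52445353) were higher in EC, and SEMA5A (chr5:9546076-9546325) and EPHA1 (chr7:143408857-143409106) were higher in TB. Capitals mark matches to GCCNNNGGC, a motif of AP-2 factors such as TFAP2A.
PLXND1: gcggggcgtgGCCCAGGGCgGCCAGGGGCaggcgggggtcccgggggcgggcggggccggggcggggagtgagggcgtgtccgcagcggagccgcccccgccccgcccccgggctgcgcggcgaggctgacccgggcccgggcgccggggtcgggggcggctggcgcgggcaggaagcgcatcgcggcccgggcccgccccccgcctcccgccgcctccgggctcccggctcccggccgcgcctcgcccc
SEMA3G: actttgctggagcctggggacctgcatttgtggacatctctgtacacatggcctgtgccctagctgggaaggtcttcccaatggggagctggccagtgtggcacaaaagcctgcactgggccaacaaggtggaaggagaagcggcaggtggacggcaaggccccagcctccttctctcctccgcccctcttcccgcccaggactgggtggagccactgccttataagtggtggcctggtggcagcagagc
SEMA5A: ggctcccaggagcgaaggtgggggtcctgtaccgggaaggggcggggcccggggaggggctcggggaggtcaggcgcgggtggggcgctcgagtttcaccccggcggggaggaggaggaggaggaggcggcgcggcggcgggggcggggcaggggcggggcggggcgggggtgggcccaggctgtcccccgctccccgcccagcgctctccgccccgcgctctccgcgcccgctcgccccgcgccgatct
EPHA1: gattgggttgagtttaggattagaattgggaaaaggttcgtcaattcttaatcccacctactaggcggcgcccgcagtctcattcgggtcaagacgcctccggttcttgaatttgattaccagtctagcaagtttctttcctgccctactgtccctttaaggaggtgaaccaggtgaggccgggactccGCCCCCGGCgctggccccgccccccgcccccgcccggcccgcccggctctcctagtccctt

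Both strands were searched for that motif, which reads the same on both, for CCGGAA, a core of ETS factors such as ERG, and for AGATAA, a motif of GATA factors. PLXND1 held 2 matches to GCCNNNGGC, 240 and 230 bases before the start, EPHA1 held 1, at 61 bases, and none of the 4 stretches held CCGGAA or AGATAA. RefSeq had 60 such windows for 39 of the 43 members. GCCNNNGGC was present in 38.3% of the windows of members and in 19.8% of the 35116 windows of all genes, CCGGAA in 8.33% and 14.5%, and AGATAA in 10.0% and 9.17%. The windows of members were richer in G and C, with a median of 66.4% against 58.0% for all genes, and PLXND1 reached 88.8%. Among the windows of the 4-fold members, GCCNNNGGC was found in 6 of 19 for those higher in EC and in 4 of 13 for those higher in TB. CCGGAA was found in 0 of 19 and 3 of 13, and AGATAA in 4 of 19 and 1 of 13. These windows belong to 11 and 7 genes, so 1 gene can count more than once. The windows with CCGGAA were those of PLXNB1 and SEMA4A. Those with AGATAA were of EPHA7, SEMA3E and SEMA5B for EC and of EPHA3 for TB.

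Among the ephrin-A ligands, EFNA1 carried nearly all of the signal. Its level was 1.47 CPM in the lowest, 290 in the median and 1519 in the highest EC cell, and 0, 53.1 and 324 CPM in TB. The mean was 337 ± 352 CPM (SD, n = 38 cells) in EC and 70.0 ± 74.3 CPM (SD, n = 48 cells) in TB, a 4.81-fold difference. The types overlapped, since 18 of the 38 EC cells lay above the highest TB cell. EFNA1 made up 94.2% of the summed EFNA level in EC and 82.0% in TB. EFNA4 averaged 19.96 CPM in EC and 15.3 CPM in TB with a count in 50.0% and 54.2% of the cells. EFNA3 was found in 7 EC cells, at 0.72 CPM on average, and in 0 of 48 TB cells, which allows a share of cells with a count of up to 6.25%. EFNA2 had 1 count in all.

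Of the ephrin-B ligands, EFNB2 was abundant in both types and higher in EC. It ranged from 2.54 over a median of 305 to 1685 CPM in EC and from 0 over 72.7 to 648 CPM in TB, with means of 387 ± 389 and 126 ± 146 CPM (SD), a 3.09-fold difference. EFNB1 and EFNB3 leaned to TB below the 4-fold line. EFNB1 had a count in 23.7% of EC and 60.4% of TB cells, with means of 6.69 and 13.4 CPM. EFNB3 had a count in 31.6% and 70.8%, with means of 5.43 and 17.7 CPM.

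Compared per kilobase of the longest annotated transcript, EFNA1 was the highest member in EC at 217 CPM per kb, ahead of EFNB2 at 77.6 and SEMA6A at 47.7. In TB the order was SEMA5A at 76.7 CPM per kb, SEMA6A at 50.3, EFNA1 at 45.1 and EFNB2 at 25.1. With SDs between cells about as large as the means, EFNB2 and SEMA6A in EC, and SEMA6A and EFNA1 in TB, were neighbours whose values overlapped widely.

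The Eph receptors divided between the types. EPHA2, a receptor of ephrin-A1, had a lowest, median and highest level of 0, 10.0 and 287 CPM in EC and of 0, 0.16 and 188 CPM in TB. Its mean was 44.7 ± 69.7 CPM in EC and 10.3 ± 33.5 CPM in TB, and a count was found in 86.8% of EC cells (exact binomial interval 71.9 to 95.6%) and in 50.0% of TB cells (35.2 to 64.8%). EPHB4, a receptor of ephrin-B2, averaged 31.6 ± 51.4 CPM in EC and 13.4 ± 21.1 CPM in TB, which was 2.35-fold higher, with a count in 89.5% and 68.8% of the cells. EPHA1 showed the opposite order, with 0, 0 and 162 CPM in the lowest, median and highest EC cell and 0, 15.5 and 347 CPM in TB. Its mean was 8.48 ± 33.1 CPM in EC, where EC 38 alone gave 50.4% of the sum, and 56.2 ± 87.5 CPM in TB, a 6.63-fold difference. Only 7 of the 48 TB cells lay above EC 38, and the types differed mainly in how many cells reached 10 CPM, 3 of 38 in EC and 27 of 48 in TB.

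EPHA3 was seen in 21 TB cells, up to 94.8 CPM, and by 1 count in 1 EC cell. The ratio of its pooled counts was 659-fold higher in TB, with a counting interval of 118 to 26049. EPHA7 was the reverse, with a count in 10 EC cells up to 136 CPM and in 6 TB cells up to 1.89 CPM, and means of 6.70 and 0.12 CPM. EPHB2 was found in 4 EC cells, up to 52.3 CPM, and by 2 counts in 1 TB cell. Its pooled ratio was 110-fold (30.1 to 918), with EC 11 giving 60.2% of the EC sum. In EC these receptors were therefore present in a minority of the cells, and for EPHB2 2 cells reached 10 CPM. EPHB1 averaged 10.5 CPM in EC and 3.55 in TB, of which EC 13 gave 78.8% and TB 29 gave 73.2%. EPHB3 averaged 2.49 and 7.57 CPM, and EPHA8 had no count in any passing cell of EQ.

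The secreted class 3 semaphorins differed widely in both directions. SEMA3G, which is known from endothelium, was 0, 8.01 and 364 CPM in the lowest, median and highest EC cell, and 0, 0 and 1.25 CPM in TB. Its mean was 45.8 ± 76.0 CPM in EC and 0.10 ± 0.29 CPM in TB, and 30 of 38 EC cells lay above every TB cell. SEMA3C was 0, 0 and 2.85 CPM in EC and 0, 2.78 and 736 CPM in TB, with means of 0.32 ± 0.62 and 55.7 ± 134 CPM. In TB it was uneven, with 17 of 48 cells at 10 CPM or more and 3 cells giving over 50% of the sum.

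SEMA3F and SEMA3E were higher in EC on the strength of few cells. SEMA3F had a count in 42.1% of EC and 16.7% of TB cells, means of 9.25 and 1.03 CPM, and 10 CPM or more in 3 EC cells and 1 TB cell. SEMA3E, the ligand of plexin-D1, averaged 7.62 CPM in EC and 0.34 CPM in TB, but EC 43 at 279 CPM gave 96.4% of the EC sum. Without the highest cell of each type the log2 ratio of SEMA3E was 0.38 in place of 4.50, so its difference was that of 1 cell. SEMA3A was present in both types, with medians of 0.72 CPM in EC and 19.02 CPM in TB and means of 45.9 ± 132 and 74.1 ± 129 CPM. SEMA3D was found in 0 of 38 EC cells, which allows a share of cells with a count of up to 7.89%, and in 6 TB cells, of which TB 19 reached 64.3 CPM.

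Of the membrane-bound semaphorins, SEMA5A separated the types most evenly. It was 1.11, 11.1 and 57.8 CPM in the lowest, median and highest EC cell and 8.64, 816 and 2566 CPM in TB, with means of 13.7 ± 10.99 and 902 ± 627 CPM, a 66.0-fold difference. All but 2 of the 48 TB cells lay above the highest EC cell, which was EC 15. The EC level of SEMA5A was 1.51% of its TB level, with a count in all 38 EC cells and 10 CPM or more in 21. Of the markers that define TB, VTCN1, HAND1 and KRT7 stood lower in EC, at 0.319%, 0.334% and 0.133% of their TB level. TFAP2A and GATA3 stood higher, at 30.9% and 50.8%. Of the nonzero values of SEMA5A, 98.8% were not whole numbers, which RSEM gives when reads are divided among genes of like sequence. SEMA5B, its relative, averaged 38.6 CPM in EC and 0.48 CPM in TB. In EC, cell EC 23 at 1370 CPM gave 93.3% of the sum, 8 others had a count, and without the highest cell of each type the log2 ratio was 8.37 in place of 6.34, since TB 29 likewise gave 98.4% of the TB sum. Only 2 TB cells had a count of SEMA5B, the lower at 0.375 CPM, so the larger ratio rests on a TB level near 0.

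SEMA6A was at similar levels in both types, with means of 325 ± 291 CPM in EC and 343 ± 335 CPM in TB, medians of 216 and 224 CPM, and a count in every cell. SEMA6D averaged 27.2 ± 75.4 CPM in EC and 94.5 ± 174 CPM in TB, a 3.47-fold difference, with a count in 71.1% and 93.8% of the cells. SEMA4C, with 15.5 ± 33.2 CPM in EC and 5.09 ± 13.4 CPM in TB, was found in 94.7% and 47.9% of the cells. SEMA4F averaged 15.5 and 3.82 CPM with a count in 11 EC and 5 TB cells. SEMA4A passed the 4-fold line toward TB through TB 24, which at 112 CPM gave 98.9% of the TB sum, and without the highest cell of each type its log2 ratio was -0.61 in place of -4.76. SEMA4G averaged 4.21 and 9.06 CPM, SEMA6C 4.12 and 1.97 CPM, and SEMA7A 2.73 and 2.02 CPM.

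Among the plexin receptors, PLXND1 was the member most cleanly divided toward EC. It was 17.0, 151 and 728 CPM in the lowest, median and highest EC cell and 0, 0 and 46.3 CPM in TB, with means of 180 ± 149 and 1.43 ± 6.65 CPM, a 126-fold difference. All TB cells but TB 42 were at or below 4.04 CPM, under the lowest EC cell, and TB 42 gave 67.5% of the TB sum. PLXNA2 leaned the same way at 17.0 ± 46.8 against 3.12 ± 17.0 CPM, with EC 18 and TB 17 giving 44.3% and 77.9% of their sums.

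PLXNB1 and PLXNC1 were higher in TB. PLXNB1 was 0, 0 and 79.7 CPM in EC and 0, 9.02 and 193 CPM in TB, with means of 4.10 ± 14.1 and 25.6 ± 39.8 CPM, and its highest EC cells were EC 15 at 79.7 and EC 43 at 35.2 CPM. PLXNC1, the receptor of SEMA7A, was at most 6.77 CPM in EC and reached 149 CPM in TB, with means of 0.26 and 9.88 CPM and a count in 10.5% and 47.9% of the cells. PLXNA1 averaged 29.8 and 10.5 CPM, with EC 23 giving 62.5% of the EC sum. PLXNA3 was found in every cell of both types, at 79.0 ± 79.8 CPM in EC and 48.96 ± 65.6 CPM in TB, and none of its nonzero values was a whole number within 0.005. At least 50% of the nonzero values were not whole for 10 of the 43 members, against 44.4% of all genes with a nonzero value, and leaving such members out, a choice made after the data were seen, left 9 members 4-fold higher in EC and 6 in TB.

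Of the 9 members that did not pass the filter (EFNA2, EFNA3, EPHA6, EPHA8, PLXNA4, PLXNB3, SEMA3D, SEMA4B and SEMA6B), 4 had 3 or fewer counts in each type. PLXNA4 had a count in 34.2% of EC cells and 10.4% of TB cells at means of 1.34 and 0.11 CPM. SEMA4B was at 0.13 and 1.26 CPM, with TB 49 giving 94.4% of the TB sum.

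The textbook ligand and receptor pairs could be followed within cells. EFNB2 and EPHB4 both had a count in 34 of 38 EC cells and in 33 of 48 TB cells, which were all the cells with a count of EPHB4. Both reached 10 CPM in 18 EC and 17 TB cells, where EFNB2 reached it in 36 and 42 and EPHB4 in 20 and 18. EFNA1 and EPHA2 both had a count in 33 EC and 23 TB cells, against 33 and 24 for EPHA2 alone. Both reached 10 CPM in 18 EC and 5 TB cells, where EFNA1 reached it in 33 and 33 and EPHA2 in 19 and 7. Whether the joint counts differ from what the separate counts would give was not tested. SEMA3E reached 10 CPM in 1 EC cell beside PLXND1, which did so in all 38. SEMA7A and PLXNC1 both reached 10 CPM in 0 EC cells and 1 TB cell. The partner of PLXNB1 in the rule for named pairs, SEMA4D, was not analysed here.

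The differences between EC and TB were compared across the 3 experiments, which measure the same cDNA again and are no replicates of the cells. Of the 34 members that passed the filter, 33 had the same sign in EQ, EQ-Vary and EQ-75%, and the exception was SEMA6C, with log2 ratios of 1.06, 1.14 and -0.59. The 7 members of TB were at least 4-fold higher in all 3 experiments, as were 7 of the 11 members of EC. EFNA1, PLXNA2, EPHA2 and SEMA4F were the others, with log2 ratios of 1.97, 1.97, 1.90 and 1.92 in EQ-75%, just under the log2 line of 2. PLXND1 had log2 ratios of 6.97, 6.91 and 7.26, SEMA5A of -6.04, -6.03 and -6.17, and SEMA6A of -0.08, -0.07 and -0.00. The largest movement among the members that passed was that of EPHA7, from 5.75 in EQ to 2.58 in EQ-75%.

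**Figure D2:**
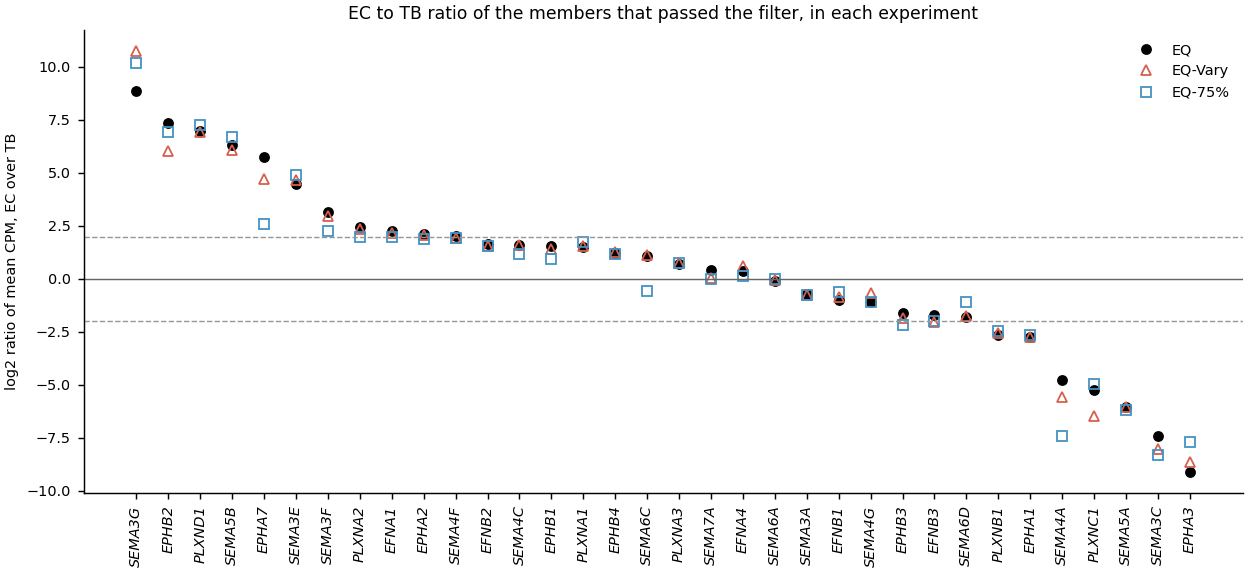
Log2 ratio of mean CPM, EC over TB, for the 34 members that passed the filter, ordered by EQ, in EQ (filled circles), EQ-Vary (triangles) and EQ-75% (squares), with dashed lines at the 4-fold ratio. The 3 symbols of PLXND1, EFNB2, SEMA6A and SEMA5A nearly coincide, while those of EPHA7 span 3.16.

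The detection rate, the share of cells with a rounded count of at least 1, gave a similar picture. A count was found in at least 50% of the cells for 16 of the 43 members (37.2%) in EC, against 50.9% of all genes, and for 17 (39.5%) in TB, against 54.2%. Both types had 12 of these members, EC alone 4 and TB alone 5. The detection rate was at least 30 percentage points higher in EC for 5 members (11.6%), against 2.75% of all genes, namely SEMA3G, PLXND1, SEMA4C, PLXNA2 and EPHA2. It was at least 30 points higher in TB for 7 members (16.3%), against 5.83% of all genes, namely EPHA1, PLXNB1, SEMA3C, EPHA3, EFNB3, PLXNC1 and EFNB1. The widest gap was that of SEMA3G, with a count in 36 of 38 EC cells (94.7%, exact binomial interval 82.3 to 99.4%) and 6 of 48 TB cells (12.5%, 4.73 to 25.2%). With each library of at least 1000000 counts thinned to that number, which left 34 EC and 44 TB cells, SEMA3G was found in 91.2% and 9.09%, and EPHA1 in 26.5% of EC and 79.5% of TB cells. In TB the detection rates of the defining endothelial markers given above ran from 0% for CLDN5 to 100% for PECAM1. Any share lies in that range, so it cannot place the 12.5% of SEMA3G and the 47.9% of PLXND1 in TB.

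**Figure D3:**
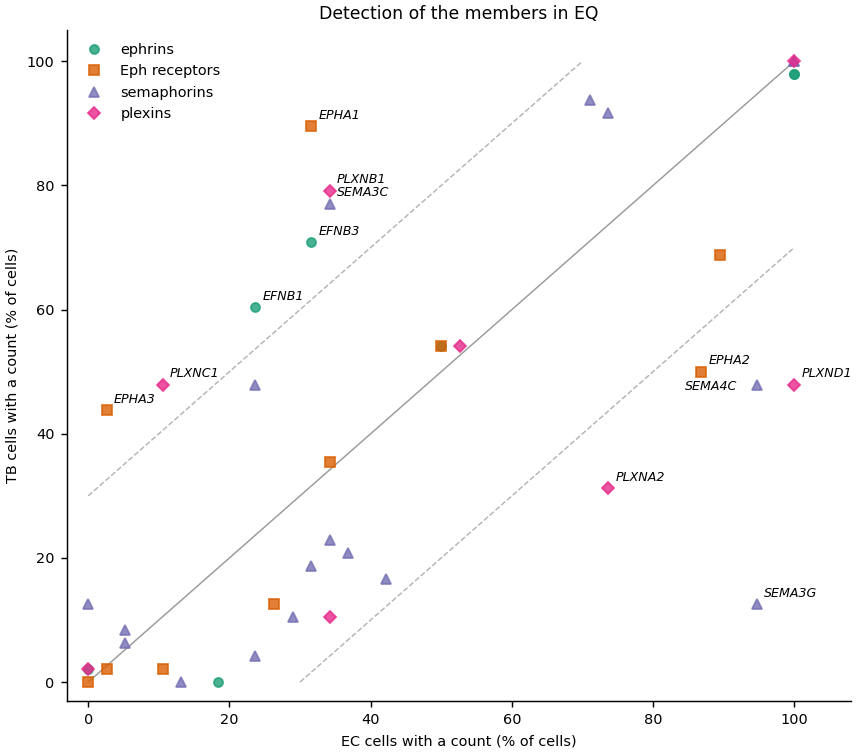
Share of TB cells with a count against the share of EC cells with a count in EQ for the 43 members, by family, with dashed lines at a difference of 30 points. The 5 labelled members at the lower right were found more often in EC and the 7 at the upper left more often in TB.

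EQ-75%, made again from the same amplified cDNA, shows how far a value in 1 cell repeats from library preparation onward. Losses or gains before that point are shared by both experiments and cannot be seen in this comparison. In the 37 EC cells that passed in EQ and EQ-75%, 695 values of members were detected in EQ, and 546 of these (78.6%) were detected again in EQ-75%. In the 47 TB cells it was 688 of 848 (81.1%). All 353 EC and 436 TB values at 10 CPM or more in EQ were detected again. Of the values at 0 in EQ, 6.70% in EC and 8.95% in TB had a count in EQ-75%. The rank correlation over cells, a description with cDNA shared by both measurements, had a median of 0.82 over 28 members in EC and 0.86 over 25 members in TB. EFNB2 and SEMA6A reached 0.99 in EC, and PLXND1 0.93, while SEMA3C in EC, where it was near 0, was at -0.15 and was detected in both experiments in 1 of the 13 cells that had it in EQ.

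**Figure D4:**
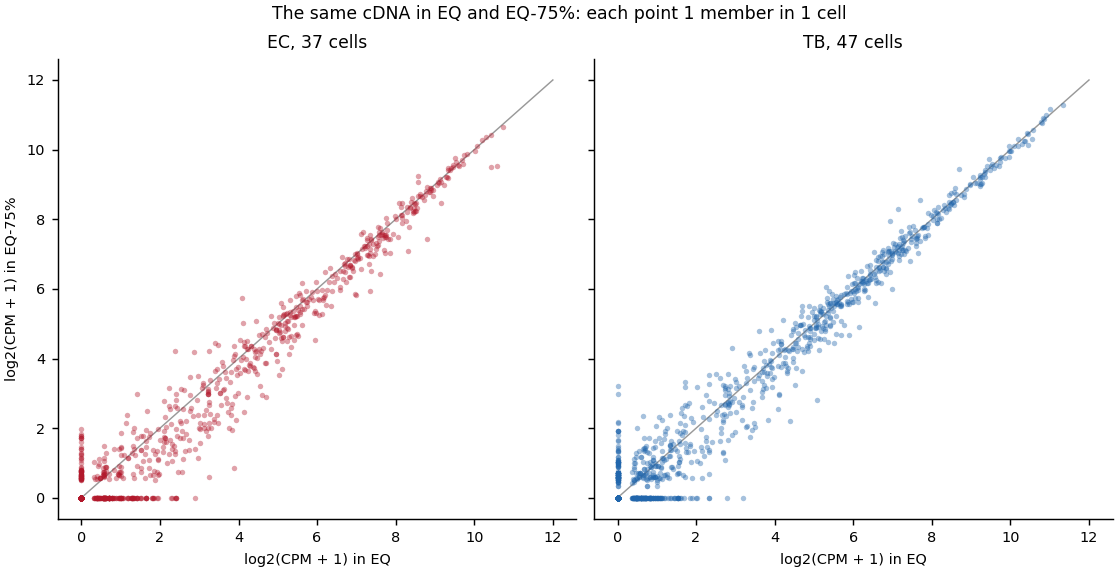
Log2(CPM + 1) of each member in each cell in EQ-75% against EQ, for the 37 EC and 47 TB cells that passed in both experiments, with the line of equal values. Points above about 4 on either axis lie near the line, and the points lying on the axes are values with a count in only 1 of the experiments.

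At equal depth, the detection rate in EQ-75% was lower than in EQ for 18 of 35 members (51.4%) in EC, against 54.8% of all genes, and for 19 of 35 (54.3%) in TB, against 52.3%. The mean difference over the members was -3.25 percentage points in EC and -2.38 in TB, and over all genes -2.96 and -1.79. The members thus did not stand out from other genes in this comparison. In EC the largest losses were those of SEMA3C and SEMA4C, both by 17.2 points over 29 cells, and in TB that of EFNB3, by 19.05 points over 42 cells.

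The spread between cells was compared with the trend of the variance of log2(CPM + 1) on its mean over all genes. A variance at least 1.5 times the trend was found for 3 of 15 members with a value in EC, against 18.4% of all genes, and for 5 of 21 in TB, against 12.5%. In EC these were EFNA1 (2.37 times the trend), EFNB2 (1.81) and SEMA3A (1.53), and in TB SEMA5A (2.71), SEMA6D (1.97), SEMA3A (1.78), SEMA3C (1.55) and SEMA6A (1.52). The least variable members were SEMA5A (0.16) and PLXNA3 (0.28) in EC and PLXNA3 (0.31) in TB, whose values were nearly all not whole, and PLXND1 (0.52) in EC. EFNA1 and EFNB2 were thus abundant in EC and still ranged over cells from 1.47 to 1519 CPM and from 2.54 to 1685 CPM.

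Over the EC cells, EFNB2 was the member that followed the endothelial markers most closely. Its Spearman correlation with the summed log2(CPM + 1) of the 15 endothelial markers was 0.51 over 38 cells, the only one of 28 members at 0.5 or more, against 0.246% of all genes, and it was 0.49 in EQ-Vary and 0.59 in EQ-75%. It was 0.48 without EC 15 and 0.47 without EC 43, so in EQ it passed the line of 0.5 only with both cells present. PLXNA2 had 0.44 and PLXNA4 0.34 in EQ, and PLXNA4 had -0.16 in EQ-75%. SEMA5A was the only member at -0.5 or less, at -0.53, against 0.604% of all genes, with -0.50 in EQ-Vary, -0.25 in EQ-75% and -0.49 without EC 15. Since SEMA5A stood in EC at 1.51% of its TB level, its correlations in EC are given as values only. PLXNB1 followed at -0.33, and at -0.18 without EC 15 and EC 43. The pluripotent markers also varied with SEMA5A and PLXNB1 in these cells. With the summed level of 9 pluripotent markers, 3 of 28 members had a correlation of 0.5 or more, against 2.75% of all genes. PLXNB1 had 0.54 in EQ, with 0.52 in EQ-Vary and 0.38 in EQ-75%, SEMA5A had 0.53, 0.31 and 0.62, and PLXNA3 had 0.51, 0.46 and 0.40. Without EC 15, the cell highest in that sum, left out after the data were seen, these were 0.496 for PLXNB1, 0.496 for SEMA5A and 0.55 for PLXNA3 in EQ, which puts PLXNB1 and SEMA5A just under the line of 0.5. For SEMA5A and PLXNA3, 98.8% and 100% of the nonzero values were not whole, and the part of reads shared with other genes in these correlations was not tested. The part of the pluripotent markers in the correlations with the endothelial sum was not tested either. The endothelial sum had a correlation of 0.03 with the total count of the cells and of 0.19 with the number of genes detected. These are descriptions over cells of 1 sample.

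EFNB2 also varied with arterial genes. Its correlation with the summed level of 8 arterial genes, among them the Notch ligand DLL4 and the gap junction gene GJA4, was 0.52 in EQ, with 0.53 in EQ-Vary and 0.55 in EQ-75%, and with 3 venous genes it was 0.03, 0.06 and -0.04. EPHB4 had -0.18 with the arterial and -0.03 with the venous genes in EQ, and EFNB2 with EPHB4 had -0.24. The arterial genes were mostly EC genes, 7 of 8 being at least 4-fold higher in EC. Of the 3 venous genes, 2 were at least 4-fold higher in EC. The other, NR2F2, averaged 9.07 CPM in EC and 182 CPM in TB. The correlation of EFNB2 with the arterial genes was not compared with that of all genes. Its dependence on the EC cells that stood apart in markers, among them the cell lowest in EFNB2, was not tested.

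Pairs of members were correlated about as seldom as pairs of other genes. Among 16 members detected in at least 50% of EC cells, 0 of 120 pairs had a correlation of 0.5 or more, against 0.498% of all pairs of genes, and the highest were SEMA5A with PLXNA3 (0.49) and EFNB2 with SEMA4C (0.41). In EQ-Vary and EQ-75% these were 0.50 and 0.32 for the first pair, and 0.29 and 0.39 for the second. The nonzero values of SEMA5A and PLXNA3 were nearly all not whole. Among 17 members in TB, 1 of 136 pairs had a correlation of 0.5 or more, against 0.599% of all pairs. This was SEMA5A with SEMA6D, at 0.53 in EQ, with 0.41 in EQ-Vary and 0.40 in EQ-75%, and at 0.52 without TB 41, the cell lowest in SEMA5A. EFNB3 with EPHB4 (0.32) came next in TB. The lowest values in EQ were -0.46 for PLXND1 with EPHB3 in EC and -0.39 for SEMA5A with EFNA1 in TB. In EQ-Vary and EQ-75% they were -0.11 and -0.49 for the first pair, and -0.39 and -0.31 for the second.

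**Figure D5:**
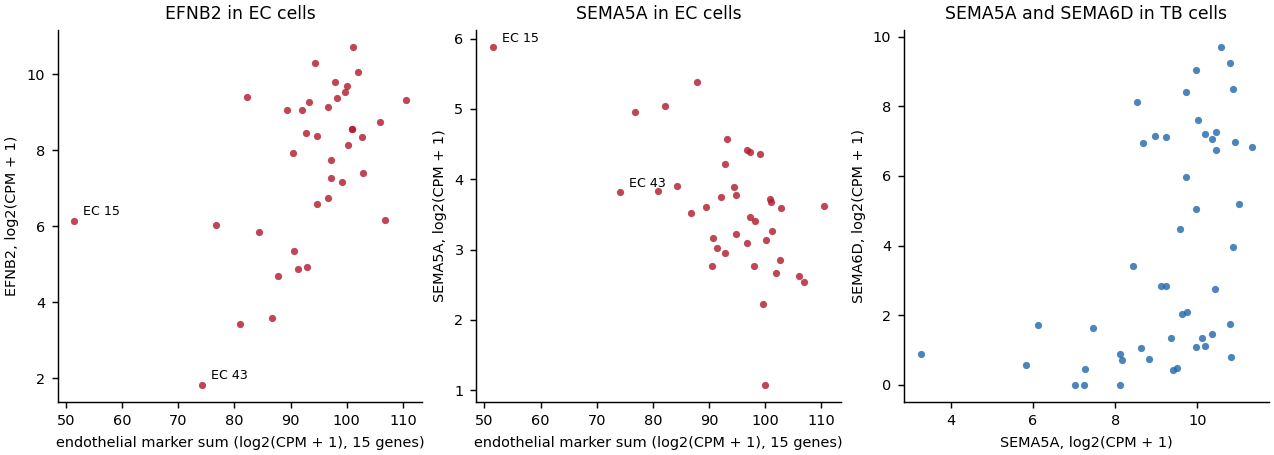
Log2(CPM + 1) of EFNB2 (left) and SEMA5A (middle) against the endothelial marker sum in the 38 EC cells of EQ, with EC 15 and EC 43 named, and of SEMA6D against SEMA5A in the 48 TB cells (right). EFNB2 is low in EC 43, SEMA5A is highest in EC 15, and the TB cells highest in SEMA6D all lie in the upper part of the SEMA5A axis.

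Co-receptors and signalling partners of these families, from a list of 35 genes, were called about as often as other genes. Of 32 that passed the filter, 4 (12.5%) were at least 4-fold higher in EC, against 10.1% of all genes, and 5 (15.6%) in TB, against 14.8%, with a median log2 ratio of 0.40. The neuropilins, co-receptors of class 3 semaphorins, were both higher in EC, NRP1 at 424 ± 328 against 179 ± 127 CPM and NRP2 at 310 ± 311 against 64.2 ± 136 CPM. VAV3, which signals downstream of Eph receptors, averaged 308 CPM in EC and 0.43 CPM in TB, and DPYSL2, a cytoskeletal effector of SEMA3A, averaged 1588 and 91.8 CPM. Those higher in TB were GRIP1, an adaptor that binds ephrin-B ligands (0.59 and 31.2 CPM), CHN2 (2.50 and 39.1 CPM), CHN1 (1.40 and 12.2 CPM), INPPL1 (2.67 and 15.8 CPM) and DPYSL3 (22.7 and 102 CPM). ADAM10, a protease that cleaves ephrins, and the adaptor SDCBP were abundant in both, at 786 and 605 CPM and at 1771 and 1606 CPM.

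Of 22 genes of the other guidance families, 16 were analysed here and 10 passed the filter, of which 4 were at least 4-fold higher in EC, against 10.1% of all genes, and 0 in TB, against 14.8%. These were the netrin receptor UNC5B (67.8 ± 144 against 1.24 ± 4.55 CPM), RGMB (16.6 and 0.12 CPM), NTN4 (4.21 and 0.0099 CPM) and ROBO3, which averaged 2.60 CPM in EC and had no count in 48 TB cells. SLIT2 leaned to TB at 91.5 against 294 CPM, and NEO1 to EC at 78.3 against 21.2 CPM.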

How the data were processed

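The tables hold 288 libraries and 17492 protein-coding genes. The authors deposited expected counts without normalization. Per the methods, reads were trimmed to 51 bp and mapped to GRCh38 Ensembl genes with Bowtie 1.2.3 (up to 2 mismatches), and counts were estimated with RSEM 1.2.31, which divides reads shared by similar genes. CASAVA 1.8.2 is also named in the submitters' processing notes. Cells were matched across experiments by number and 0 sample columns were left unused.

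Cells with a log10 total count of at least 5.4 and at most 31% of counts in the top 50 genes were kept. Counts were rounded and scaled to CPM, with a floor of 3 counts over a type at 0. Ratios were of mean CPM over cells, and log2 values carry a pseudocount of 1 only for the variance and the marker sums. The variance trend was a lowess fit. Folds, variance ratios and thinning were tested on simulated data. Doublets were not called from the counts. The paper states that quality control of its initial experiment, before equalization, removed cells that looked like doublets or dead in images. Gene positions and lengths were from GENCODE v44. Python 3.11.15, numpy 2.4.6, pandas 2.3.3, scipy 1.17.1, statsmodels 0.14.6, R 4.3.3 and scran 1.30.0 were used.

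The members, gene lists and the rule for named genes were chosen with earlier results of these data known. The rule named members with a 4-fold ratio, the most abundant of each class, those with a 30-point difference in detection, known pairs, and the extremes of the variance and of the correlations. Further members were named after their values were seen.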

Additional observations from a re-analysis of the deposited data

How the results depend on the processing

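The counts of members were recomputed with other experiments, levels, scalings, filters and cells. The number at least 4-fold higher in EC was 11 in EQ and 7 in EQ-75%, and with a 2-fold line it was 17 for EC and 12 for TB. The number detected in at least 50% of the cells was 8 in EC and 8 in TB when detection meant 10 CPM, and 10 in TB when it meant a count of 5. The number with a lower detection rate in EQ-75% was 29 in EC without thinning, and 12 in TB with a count of 5. The number with a high variance was 1 in EC over all cells and 3 in TB in EQ-Vary. The number of pairs at 0.5 or more was 1 in EC over all cells, and 0 in TB in EQ-Vary or with Pearson's r. In EQ-Vary, 0 members reached 0.5 with the endothelial sum. Of the 69 recomputed counts, 55 stayed within 1.5 times the value in EQ, and the cause of the other changes was not tested. In every setting that gave a value, 6 members stayed at least 4-fold higher in EC (SEMA3F, PLXND1, SEMA3G, SEMA5B, EPHB2 and EPHA7) and 5 in TB (EPHA3, SEMA3C, SEMA5A, PLXNC1 and EPHA1). The median CPM gave no value for SEMA3F, SEMA5B, EPHB2, EPHA7, EPHA3 and PLXNC1, whose medians were 0 in both types. These were judged over 9 settings and the others over 10, so the list does not rank members by stability. EFNA1 and PLXNA2 met the line in 9 of 10 settings and missed it in EQ-75%, at log2 ratios of 1.97. Of 153 recomputed log2 ratios 1 reversed, that of SEMA3E, which was -0.31 without EC 15, EC 43 and TB 5, since EC 43 carried its sum. Cells were matched by number between experiments, and no paired test was run because each cell type in each experiment is 1 sample. With the median CPM as the level, the median log2 ratio over all genes was -0.34 in place of -0.06, and 1055 genes were 4-fold higher in EC and 2701 in TB, in place of 1250 and 1834. Every member value detected in EQ and not in EQ-75% was under 10 CPM in EQ, so single values at that level are uncertain.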

Other observations

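Some members that lie close together in the genome differed in their levels and in the type where they were higher. On chromosome 7, SEMA3C, SEMA3E, SEMA3A and SEMA3D lie between positions 80742538 and 85187056 (GRCh38). SEMA3C averaged 0.32 CPM in EC and 55.7 CPM in TB and SEMA3D 0 and 1.69 CPM, while SEMA3E averaged 7.62 and 0.34 CPM and SEMA3A was present in both. EC 43 gave 96.4% of the EC sum of SEMA3E, whose log2 ratio was 0.38 without the highest cell of each type. TB 19 gave 79.5% of the TB sum of SEMA3D. The higher level of SEMA3E in EC was thus that of 1 cell. On chromosome 1, EFNA4, EFNA3 and EFNA1 lie between 155063737 and 155134899, and their means in EC were 19.96, 0.72 and 337 CPM. On chromosome 3, PLXNB1, SEMA3F and SEMA3G lie between 48403854 and 52445103, with log2 ratios of EC over TB of -2.64, 3.17 and 8.87.

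The cells that stood apart in markers also held the highest or lowest levels of some members. In EC 15, SEMA5A was at 57.8 CPM and PLXNB1 at 79.7 CPM, each the highest among EC cells, with PLXND1 at 22.4 CPM, SEMA3G at 3.99 CPM and EFNA1 at 14.9 CPM. In EC 43, SEMA3E was at 279 CPM and EFNB2 at 2.54 CPM, the highest and the lowest among EC cells, with EFNA1 at 552 CPM and PLXND1 at 64.2 CPM.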
